A study of Mus musculus with 6 samples.

Results

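The 10 genes described here mark the entry of blood progenitors into the red cell lineage and were followed in irradiated LSKs with and without Tespa1. They were chosen by name as early erythroid regulators and markers, and all 10 were found once each among the 55487 genes of the deposited table: the transcription regulators Gata1, Zfpm1 and Klf1, the receptors Epor and Tfr2, the membrane proteins Ermap, Rhag and Aqp1, and the carbonic anhydrases Car1 and Car2. LSKs are bone marrow cells without lineage markers that carry Sca-1 and c-Kit, a fraction which holds hematopoietic stem cells and early multipotent progenitors. Bulk RNA sequencing was available for 3 Tespa1+/+ and 3 Tespa1-/- samples. Per the study's methods, the mice were males of 8 to 10 weeks, the Tespa1-/- line (B6.129S-Tespa1tm1Smoc, for which no Cre is named) had been backcrossed to C57BL/6, and the LSKs were taken at day 13 after 5 Gy of total body irradiation. The Tespa1+/+ mice were littermates per the labels. Both groups were irradiated, so the comparison is of genotypes after irradiation. Whether a sample was 1 mouse or a pool is not given in the sources used here, so the p-values below measure the spread between samples.

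Erythroid commitment starts when multipotent progenitors raise the transcription factor Gata1, which works with its cofactor Zfpm1 (also called FOG1) and with the Tal1, Lmo2 and Ldb1 complex on GATA sites, while the competing factor Spi1 (PU.1) favours myeloid fates. Klf1 then activates globin, membrane and heme genes through CACC sites, and the erythropoietin receptor Epor, signalling through Jak2 and Stat5, supports the survival of the committed cells. Genes such as Car1, Car2, Aqp1, Ermap and Rhag supply the gas exchange, water transport and membrane proteins of the growing red cell.

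The gene targeted in the mice was measured first. Tespa1 held 32.7 to 36.0 normalised read counts (CPM, in which TMM factors bring all libraries to one total) in the 3 Tespa1+/+ libraries and 14.2 to 15.3 in the 3 Tespa1-/- libraries, so it was lower but not absent (log2 fold change -1.23 ± 0.07 SE, edgeR quasi-likelihood test, adjusted p = 7.0e-06). Which exons the allele removes is not given in the sources used here. Total counts ranged from 12856630 to 30576981 per library. Of the sort markers, Kit (c-Kit) had a mean of 26.5 FPKM with Tespa1 and 12.6 without it and Ly6a (Sca-1) one of 15.1 and 11.3, where FPKM is the deposited value per gene length and library total. Kit had a log2 fold change of -0.97 ± 0.04 (edgeR adjusted p = 2.1e-06), or -0.48 with the correction for gene length given below. Ly6a overlapped between the groups (-0.32 ± 0.16, edgeR adjusted p = 0.109).

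Of the 10 early erythroid genes, 8 were lower in Tespa1-/- LSKs, by 1.62- to 3.09-fold, and none was called higher. The lowered genes were Gata1, Zfpm1, Klf1, Epor, Ermap, Aqp1, Car1 and Car2. Tfr2 was lower by 1.46-fold, under the fold of 1.5 that a call required, and Rhag was the exception, at 1.48 times its Tespa1+/+ level. A gene was called at an adjusted p under 0.05 in the edgeR test with a fold over 1.5. By this rule 19.2% of the 15332 genes tested were called lower and 14% higher, 33.3% in all, against 8 and 0 of the 10 members, all of which were tested. At an unadjusted p under 0.05 without a fold limit, 1 member (Rhag) was higher, and DESeq2 and limma (which tested neither Rhag nor Ermap) called 0 higher under the full rule. For every member the 3 values of one genotype lay outside the range of the other, with 9 members lower and Rhag higher in all Tespa1-/- libraries. Over all genes tested, 34.6% separated in this way with the Tespa1-/- libraries lower and 34.5% with them higher. The median log2 fold change was -0.87 over the members and -0.0003 over all genes tested. In bulk RNA, fewer erythroid-primed cells among the LSKs and less RNA of these genes per cell cannot be told apart.

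**Figure D1:**
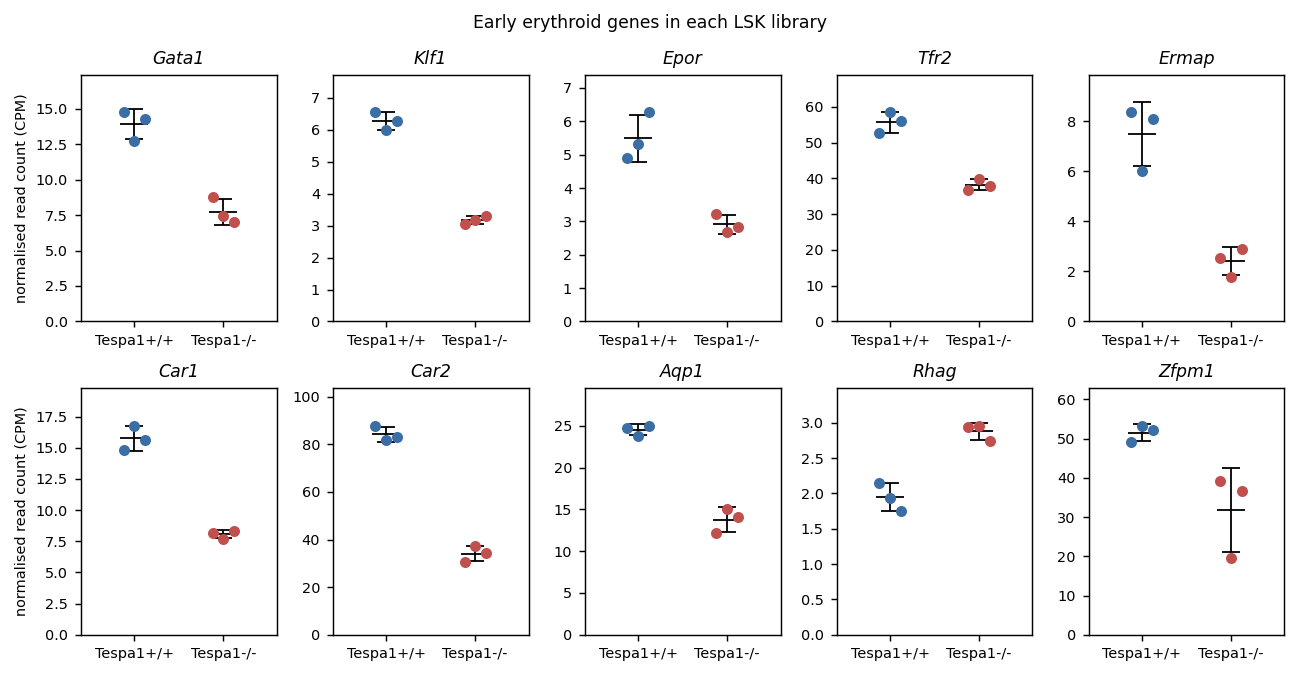
Normalised read count (CPM, linear axis from 0) of the 10 early erythroid genes in each library, with blue points for the 3 Tespa1+/+ and red points for the 3 Tespa1-/- libraries, and the mean ± SD in black. The red points lie below the blue points in 9 panels and above them in the Rhag panel, and 1 Tespa1-/- library of Zfpm1 sits at 19.6 CPM, apart from the other two.

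Of the transcription regulators, Gata1 (chrX:7959260-7978071, minus strand, GRCm38, protein coding as are all members), the master factor of erythroid and megakaryocytic fate, was measured at 14.8, 12.7 and 14.3 CPM in Tespa1+/+ replicates 1 to 3 and at 8.75, 7.44 and 7.02 CPM in Tespa1-/- replicates 1 to 3. The groups stood clearly apart, and the level in the Tespa1-/- libraries was 0.559 times that in the Tespa1+/+ libraries. The log2 fold change was -0.84 ± 0.11 (SE, n = 3 per group, edgeR adjusted p = 5.4e-04). Klf1 (chr8:84901928-84905295, plus strand), which switches on the adult globin programme, went from 6.55, 5.99 and 6.27 CPM to 3.05, 3.17 and 3.31 CPM. Its log2 fold change was -0.98 ± 0.11 (edgeR adjusted p = 1.6e-04), and within each genotype the 3 libraries were close to each other.

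Zfpm1 (chr8:122282141-122337251, plus strand), the zinc finger cofactor that binds Gata1, lies on the same chromosome as Klf1 and was the least even of the genes. The Tespa1+/+ libraries held 49.1, 53.3 and 52.1 CPM and the Tespa1-/- libraries 39.2, 19.6 and 36.7 CPM. Replicate 2 of the Tespa1-/- group was thus far below the other two, and the group mean was 31.8 ± 10.7 CPM against 51.5 ± 2.20 CPM (SD, n = 3). The log2 fold change was -0.69 ± 0.23 (edgeR adjusted p = 0.032). Without that library it was -0.43 (adjusted p = 0.00191), a fold under 1.5, so the size of the Zfpm1 difference rested on 1 library. Leaving out any one Tespa1+/+ library gave adjusted p-values of 0.058, 0.0824 and 0.0747.

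Sequence before the start sites is shown because Gata1 and Klf1 act through GATA and CACC motifs. The sequences are the bases before the RefSeq start (GRCm38.p6) of Gata1 and of the 4 members whose exon-free bases hold a GATA motif. They are written 5′ to 3′ on the gene's strand, without bases that the annotation places in an exon of the gene or that lie within the gene span of the table where that span begins inside the stretch. Capitals mark GATA motifs (AGATAA and the form AGATAG, and with a first T the forms TGATAA and also TGATAG, on either strand) and CACC motifs (CCNCNCCC, on either strand). Overlapping CACC matches form 1 run of capitals.
Gata1, chrX:7967911-7968030, minus strand: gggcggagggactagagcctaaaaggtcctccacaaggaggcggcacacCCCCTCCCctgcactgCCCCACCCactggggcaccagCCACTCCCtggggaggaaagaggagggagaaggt
Klf1, chr8:84901862-84901927, plus strand: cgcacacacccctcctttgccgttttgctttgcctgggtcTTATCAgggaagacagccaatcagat
Epor, chr9:21963577-21963696, minus strand: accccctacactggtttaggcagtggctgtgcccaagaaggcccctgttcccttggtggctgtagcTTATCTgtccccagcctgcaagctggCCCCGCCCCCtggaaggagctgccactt
Ermap, chr4:119190012-119190115, minus strand: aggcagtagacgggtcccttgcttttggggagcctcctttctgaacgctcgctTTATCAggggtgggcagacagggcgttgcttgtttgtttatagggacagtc
Rhag, chr17:40811029-40811125, plus strand: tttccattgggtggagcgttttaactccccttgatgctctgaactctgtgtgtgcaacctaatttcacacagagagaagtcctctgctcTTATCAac
The Klf1, Ermap and Rhag stretches hold the same 6 letters, TTATCA (the reverse complement of TGATAA), at positions -80, -67 and -31 from the start, and Epor holds TTATCT at -54. Ermap, called lower, and Rhag, with a higher level, thus share these letters. The Gata1 stretch, which lies inside the gene span of the table, holds 3 CACC matches and no GATA match.

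RefSeq windows of 300 bases (250 before and 50 after the start) were found for 8 of the 10 members, with 3 alternative starts for Tfr2. Car1 and Car2 had no entry. A GATA motif was present in a window of Klf1, Epor, Tfr2 (1 of its 3 windows), Ermap and Rhag, that is, in 5 of 10 windows, and in 29.76% of all 32851 windows of this length. CACC motifs stood in 7 of the 10 windows and in 49.47% of all windows, and Klf1, Ermap and Rhag had none. E-box motifs (CANNTG) stood in 4 of the 10 windows and in 72.31% of all windows. These matches describe letters only, and no binding was measured.

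The erythropoietin receptor Epor (chr9:21958897-21963506, minus strand) fell from 4.90, 5.32 and 6.27 CPM in Tespa1+/+ to 3.23, 2.69 and 2.82 CPM in Tespa1-/- libraries. The lowest Tespa1+/+ library was above the highest Tespa1-/- library (log2 fold change -0.90 ± 0.14, edgeR adjusted p = 0.00119). Tfr2 (chr5:137569840-137587481, plus strand) encodes the second transferrin receptor, an iron sensor that also associates with Epor. It was at 52.7, 58.5 and 56.0 CPM and at 36.9, 39.9 and 37.8 CPM. The spread within each group was small, and the difference passed the test (log2 fold change -0.55 ± 0.06, edgeR adjusted p = 1.6e-04) without reaching the fold of 1.5.

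Of the membrane proteins, Ermap (chr4:119175457-119190011, minus strand), the erythroid membrane-associated protein that carries the Scianna blood group in humans, had the largest fold change of the 10 without a length correction. It was at 8.37, 6.02 and 8.09 CPM in Tespa1+/+ and 2.52, 1.79 and 2.90 CPM in Tespa1-/- libraries. This is a log2 fold change of -1.63 ± 0.21 (edgeR adjusted p = 4.1e-04), or 3.09-fold lower. Corrected on the length implied by the deposited FPKM it was -1.12, with Car2 at -1.34. The water channel gene Aqp1 (chr6:55336432-55348555, plus strand) was at 24.7, 23.8 and 25.0 CPM and at 12.2, 15.1 and 14.03 CPM (log2 fold change -0.83 ± 0.09, edgeR adjusted p = 1.7e-04). Aqp1 is also a gene of vascular endothelium. Endothelial markers are given below, and a part of such cells in the Aqp1 difference was not tested.

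Rhag (chr17:40811126-40840754, plus strand), the glycoprotein that carries the Rh complex to the membrane and passes ammonia, went the other way. The raw counts were 39, 61 and 26 with Tespa1 and 50, 43 and 34 without it, low numbers that scaled to 2.15, 1.93 and 1.75 against 2.94, 2.96 and 2.74 CPM. All 3 Tespa1-/- libraries were above all 3 Tespa1+/+ libraries. The log2 fold change was 0.56 ± 0.14 (edgeR adjusted p = 0.0106), but DESeq2 gave an adjusted p of 0.15 for a log2 fold change of 0.56. Without Tespa1+/+ replicate 1 or Tespa1-/- replicate 3 the value was 0.63 or 0.60, above the fold of 1.5, so that Rhag was then called higher.

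Car2 (chr3:14886273-14900770, plus strand), a fast cytosolic carbonic anhydrase, was the most abundant of the 10 and the one with the lowest adjusted p. It went from 87.9, 82.0 and 83.0 CPM to 30.8, 37.2 and 34.2 CPM (log2 fold change -1.31 ± 0.07, edgeR adjusted p = 7.9e-06). Car1 (chr3:14766216-14808368, minus strand), an abundant carbonic anhydrase of the red cell, went from 14.8, 16.8 and 15.7 CPM to 8.16, 7.71 and 8.31 CPM (log2 fold change -0.97 ± 0.09, edgeR adjusted p = 6.3e-05). Both genes lie in a stretch of chromosome 3 of 259044 bases together with Car3 and Car13, which were picked for mention after their values had been seen. Car3 (chr3:14863512-14872523) held 56, 93 and 41 counts in Tespa1+/+ and 21, 23 and 17 in Tespa1-/- libraries, and Car13 (chr3:14641727-14663002) held 151, 298 and 104 against 84, 52 and 56. Their log2 fold changes were -1.07 ± 0.16 and -0.93 ± 0.16 (edgeR adjusted p = 7.9e-04 and 0.0019), so all 4 of these neighbours were called lower. The other carbonic anhydrase genes that passed the count filter, Car9, Car12 and Car15, had log2 fold changes of 0.22, 0.12 and -0.49 and were not called.

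Per gene length, the order of the 10 levels was the same in both genotypes. In Tespa1+/+ libraries the mean FPKM was 28.5 ± 1.10 (SD, n = 3) for Car2, 10.9 ± 0.451 for Zfpm1, 9.65 ± 0.262 for Aqp1, 8.88 ± 0.548 for Car1, 6.52 ± 0.334 for Tfr2, 5.21 ± 0.410 for Gata1, 3.14 ± 0.146 for Klf1, 2.53 ± 0.323 for Epor, 0.632 ± 0.0646 for Rhag and 0.520 ± 0.0897 for Ermap. The ranges of Aqp1 and Car1 overlapped, as did those of Rhag and Ermap, so these neighbours in the order did not differ beyond their spread. In Tespa1-/- libraries the means ran from 10.7 ± 1.03 FPKM for Car2 to 0.156 ± 0.0365 for Ermap, and the overlapping neighbours were Zfpm1 with Aqp1 and Car1 with Tfr2. Summed over the 10 genes, the level was 75.9 to 76.8 FPKM in Tespa1+/+ and 35.9 to 37.9 FPKM in Tespa1-/- libraries. The length behind the deposited FPKM was 14912 bases for Ermap and 8831 for Tfr2, where the union of the annotated exons is 5297 and 4336 bases, so the FPKM of these 2 is lower than the annotated exons alone would give.

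Across the whole table, short genes tended to be higher and long genes lower in the Tespa1-/- libraries. The Spearman correlation of the log2 fold change with union exon length was -0.61 across 10135 genes, which are not independent replicates. Those genes passed a stricter cut on average expression than the mean over 2 CPM used for the medians that follow. The shorter members ran against this trend, apart from Rhag. Car1, with 1248 bases, had a log2 fold change of -0.97 where the median of the 237 genes of like length was 0.43, and Klf1, with 1530 bases, had -0.98 where the median of 325 such genes was 0.42. Like length here means within 0.1 on the log2 scale, among genes with a mean over 2 CPM. For Gata1 (2438 bases) and Epor (1989 bases) the medians were 0.26 and 0.36. Ermap and Tfr2 were the longest members, and their length groups had medians of -0.11 and -0.02. Rhag (2339 bases) lay above its length group, at 0.56 against 0.29.

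**Figure D2:**
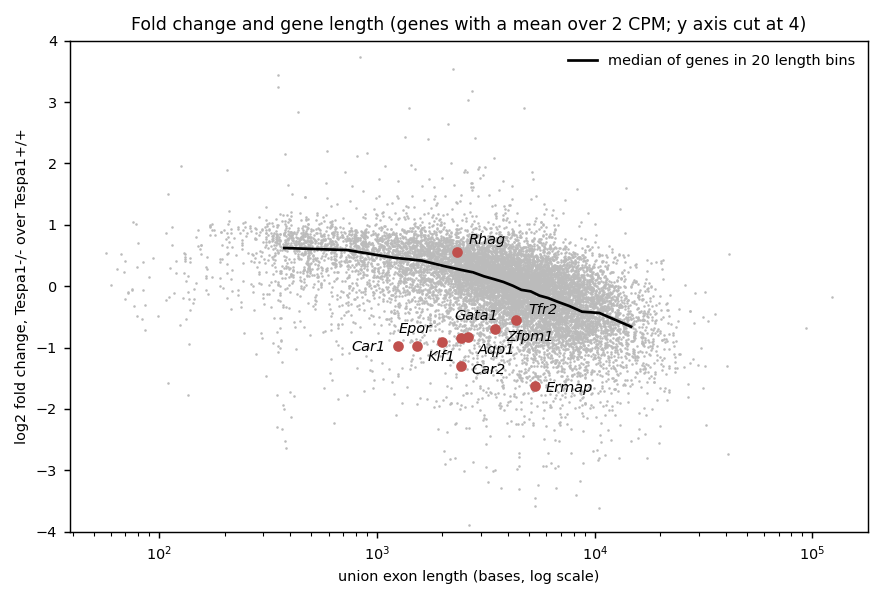
Log2 fold change (Tespa1-/- over Tespa1+/+) against union exon length (bases, log axis) for genes with a mean over 2 CPM in grey, with the running median over 20 length bins in black and the 10 early erythroid genes in red. The black line falls with length, and 9 red points lie below it while Rhag lies above it.

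Under a correction for gene length, again 8 members were called lower and 0 higher, against 13.5% and 11.7% of all genes. The correction shifted the median of all genes to 0.11 and that of the members to -0.96. It moved the short genes down and the long ones up: Klf1 to -1.16, Car1 to -1.21 and Epor to -1.02, but Ermap to -1.38 and Tfr2 to -0.39. The log2 fold changes of Gata1 (-0.90), Car2 (-1.37), Aqp1 (-0.87), Zfpm1 (-0.63) and Rhag (0.49) moved less. The edgeR adjusted p of Zfpm1 became 0.0476 and that of Rhag 0.0215.

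**Figure D3:**
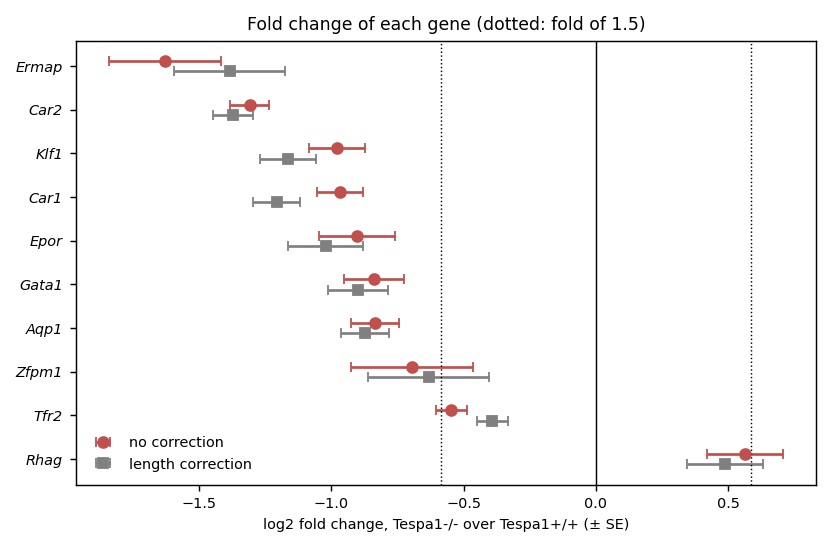
Log2 fold change ± SE of each early erythroid gene, in red from the edgeR test without correction and in grey with the gene length correction, with dotted lines at a fold of 1.5. In both, 9 genes lie to the left of 0, from -1.63 for Ermap to -0.55 for Tfr2 without correction, and Rhag lies at 0.56.

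Ratios of 2 genes within a library do not depend on library scaling, but they were not corrected for the length trend given above. Pairs of functional partners or rivals were compared with a two-sided exact permutation test, in which 3 against 3 samples cannot give a p below 0.1. The ratio of Gata1 to Spi1, which oppose each other at the erythroid and myeloid branch, was 0.109, 0.0860 and 0.103 (FPKM over FPKM) in Tespa1+/+ and 0.0396, 0.0325 and 0.0318 in Tespa1-/- libraries. It fell by 1.52 on the log2 scale and the groups did not overlap (exact permutation p = 0.1, 0.14 after adjustment over the 7 pairs computed, of which 6 are given). Spi1 itself had a log2 fold change of 0.67 (edgeR adjusted p = 1.0e-05). The ratio of Gata1 to Gata2, the GATA factor of stem cells that Gata1 replaces during commitment, was 0.640, 0.365 and 0.558 against 0.557, 0.638 and 0.405. These ranges overlapped (log2 difference 0.05, exact permutation p = 1), and both genes were lower.

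Klf1 relative to Fli1, which favours the megakaryocyte over the erythroid branch, had a ratio of 0.0881, 0.0835 and 0.0872 with Tespa1 and of 0.0397, 0.0425 and 0.0466 without it (log2 difference -1.01). Fli1 alone differed by 0.03 on the log2 scale (edgeR adjusted p = 0.551). Tfr2 relative to Tfrc, the main transferrin receptor, gave a log2 difference of -1.35, with 0.274 to 0.340 in Tespa1+/+ and 0.114 to 0.133 in Tespa1-/- libraries. Car1 relative to Car2 was 0.281 to 0.342 against 0.346 to 0.443 (log2 difference 0.35). With the length correction, the log2 fold changes of Car1 and Car2 were -1.21 and -1.37, closer together than -0.97 and -1.31 without it. The groups did not overlap in any of these 3 pairs, each with an exact permutation p of 0.1 (0.14 adjusted). Zfpm1 relative to Gata1 overlapped between the groups (log2 difference 0.09, exact permutation p = 0.9).

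**Figure D4:**
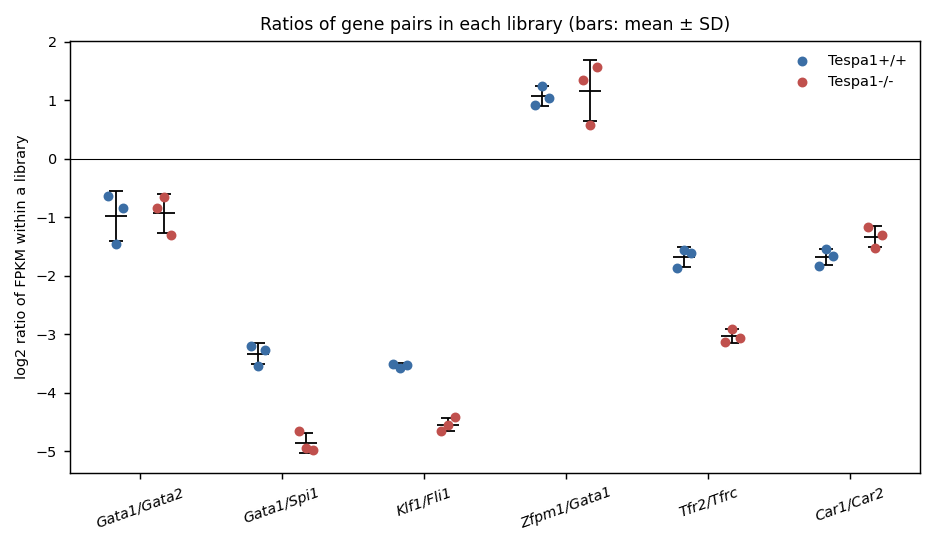
Log2 ratio of the FPKM values of 2 genes within each library, for 6 pairs, with blue points for Tespa1+/+ and red points for Tespa1-/- libraries and the mean ± SD in black. The 2 colours overlap for Gata1/Gata2 and Zfpm1/Gata1 and are apart for the other 4 pairs, with red lower for Gata1/Spi1, Klf1/Fli1 and Tfr2/Tfrc and higher for Car1/Car2.

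Further genes of the erythroid programme were read from lists by role, against the same 19.2% lower and 14% higher over all genes tested. Of 13 other markers of early erythroid progenitors, 6 were called lower and 0 higher (median log2 fold change -0.58): Samd14, Atp1b2, Add2, Slc14a1, Cnrip1 and Hemgn. Atp1b2, a sodium pump subunit, had a log2 fold change of -1.78 ± 0.14, and Hemgn, a nuclear protein of erythroid progenitors, one of -1.16 ± 0.09 (edgeR adjusted p = 3.0e-05 and 4.1e-05). Muc13, the most abundant of the list, had a log2 fold change of -0.38 ± 0.03 (edgeR adjusted p = 1.6e-05), under the fold of 1.5. Of 16 partner transcription factors, 6 were called lower and 0 higher (median -0.45), namely Gata2, Tal1, Bcl11a, Sox6, Foxo3 and Ikzf1. Foxo3, which drives the antioxidant genes of maturing erythroid cells, had -0.87 ± 0.04, Bcl11a, the repressor of fetal globin, -0.86 ± 0.05, and Ikzf1 (Ikaros), a lymphoid factor, -1.44 ± 0.09. With the length correction Bcl11a stood at -0.19, and 4 of the 16 were called lower, against 13.5% of all genes under that correction. Gata2 was at 1290, 3387 and 1170 counts in Tespa1+/+ and 825, 522 and 662 in Tespa1-/- libraries (log2 fold change -0.91 ± 0.19, edgeR adjusted p = 0.0046).

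Of 13 genes of erythropoietin signalling that were tested, 4 were called lower and 0 higher (median -0.33): the kinase Jak2, the transcription factor Stat5b, and Cish and Socs2, feedback inhibitors that Stat5 induces. Socs2 had a log2 fold change of -1.99 ± 0.12 and Stat5b of -0.60 ± 0.04 (edgeR adjusted p = 9.2e-06 and 1.2e-05). Pik3r1, a kinase subunit, was at -0.53 ± 0.03, under the fold of 1.5, and at 0.01 with the length correction. That correction left Cish and Socs2 called, 2 of the 13, near its share of 13.5% over all genes, with Jak2 at -0.56 and Stat5b at -0.33, under the fold. These genes also serve other cytokine receptors of LSKs.

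Of 17 genes of iron uptake and heme synthesis that were tested, 1 was called higher and 0 lower, with a median log2 fold change of 0.32. The gene called was Tfrc, at 3874, 6024 and 2801 counts in Tespa1+/+ and 6099, 4811 and 4330 in Tespa1-/- libraries (0.81 ± 0.06, edgeR adjusted p = 1.8e-05). Alas1, the heme synthesis enzyme of all tissues, was at 0.53 ± 0.03 and Tmem14c, needed for porphyrin transport into mitochondria, at 0.57 ± 0.04, both under the fold of 1.5. Alas2, the erythroid form of the enzyme, held 3, 4 and 0 counts in Tespa1+/+ and 14, 11 and 7 in Tespa1-/- libraries, too few to be tested.

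Late erythroid genes were mixed: of 14 tested, 4 were called higher and 5 lower (median 0.15). Those higher were the globin genes Hba-a1, Hba-a2 and Hbb-bs and the anion exchanger Slc4a1, and those lower included the membrane skeleton genes Sptb and Ank1 and the blood group genes Kel and Xk. Hba-a1 held 90, 150 and 49 counts in Tespa1+/+ and 354, 276 and 213 in Tespa1-/- libraries (log2 fold change 2.11 ± 0.16, edgeR adjusted p = 2.6e-05). Hba-a1 and Hba-a2 are near-identical copies, as are the Hbb genes, so the split of reads between them is uncertain. Ank1 was at -1.62 ± 0.15 and Xk at -0.60 ± 0.07 (edgeR adjusted p = 6.6e-05 and 2.0e-04). The summed level of the 18 late erythroid genes was 46.9 to 47.4 FPKM in Tespa1+/+ and 63.1 to 67.6 FPKM in Tespa1-/- libraries. The embryonic globins Hba-x and Hbb-y were listed at 0 in all libraries.

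**Figure D5:**
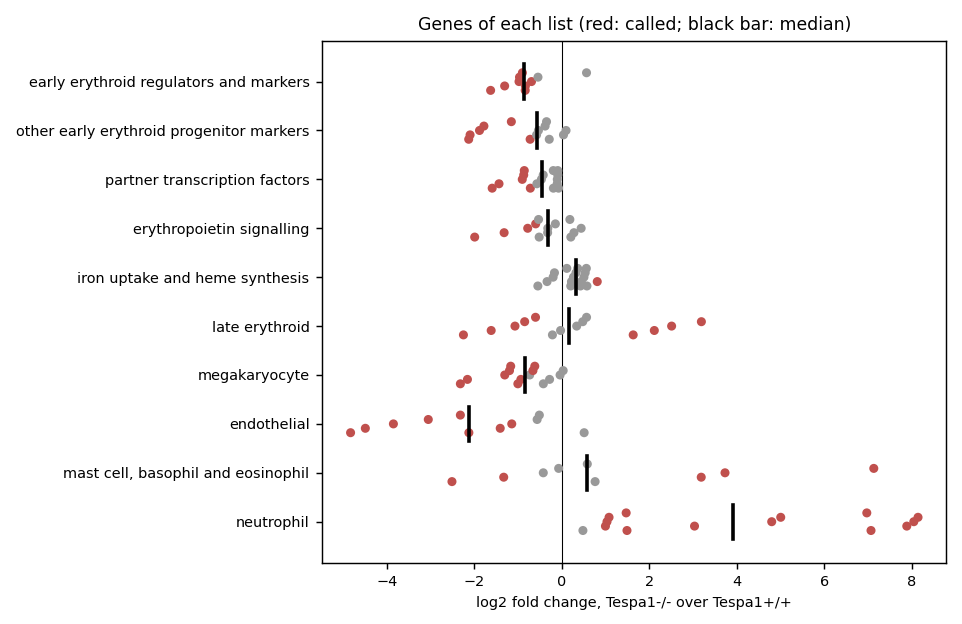
Log2 fold change (Tespa1-/- over Tespa1+/+) of the tested genes of 10 lists, with called genes in red, other genes in grey and the median of each list as a black bar. The members have a median of -0.87, iron uptake and heme synthesis 0.32, late erythroid genes 0.15, endothelial genes -2.13 and neutrophil genes 3.91.

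Relatives of the members were read in the same way. Of 32 paralogs, 15 passed the count filter, and of these 8 were called lower and 1 (Tfrc) higher, with a median log2 fold change of -0.71. Klf2, a Klf family factor, was the most abundant, at 375 FPKM in Tespa1+/+ and 213 in Tespa1-/- libraries (-0.71 ± 0.04, edgeR adjusted p = 1.0e-05). Klf4 was at -1.14 ± 0.06 (edgeR adjusted p = 7.9e-06). The GATA factors of other tissues, Gata4 and Gata5, were listed at 0 in all libraries.

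Markers of other cell types moved between the genotypes as well. The study's lineage cocktail held antibodies to CD11b and Gr-1, which mark mature granulocytes, and mature cells were depleted before the sort. The cocktail also held an antibody to the erythroid antigen Ter119. Of 14 neutrophil and granulocyte progenitor genes, 13 were called higher and 0 lower (median 3.91, or 1.45 over those with at least 10 counts in every sample), and their summed level was 4031 to 4342 FPKM in Tespa1+/+ and 7002 to 7702 FPKM in Tespa1-/- libraries. Elane, Mpo and Ctsg, granule enzymes of granulocyte progenitors, were the most abundant, Elane with 1355 and 2522 FPKM. Ngp and S100a9 had log2 fold changes of 8.14 ± 0.12 and 7.07 ± 0.14, and S100a8 went from 2.88 to 86.7 FPKM. Of 14 megakaryocyte genes tested, 9 were called lower and 0 higher (median -0.84), with Vwf at -2.32 ± 0.12 and Thbs1 at -0.94 ± 0.09. Vwf stood at -1.56 with the length correction and is also counted in the endothelial list. The most abundant genes, Fli1 and Itga2b, were not called, at 0.03 ± 0.04 and -0.28 ± 0.06. Selp, next in level, was called lower at -0.66 ± 0.07. Of 11 endothelial genes tested, 8 were called lower and 0 higher (median -2.13, or -0.88 over those with at least 10 counts in every sample), with a summed level of 26.7 to 26.8 FPKM in Tespa1+/+ and 14.1 to 15.2 FPKM in Tespa1-/- libraries. Fabp4 was at -3.85 ± 0.27 and Tek at -1.41 ± 0.10, Pecam1, the most abundant, was at 12.4 and 7.81 FPKM, and Lyve1 was at 0 in all libraries. Flt1 went the other way, at 0.51 ± 0.16 (edgeR adjusted p = 0.0261), under the fold of 1.5. With the length correction Flt1 stood at 1.19. Under that correction 8 of the 11 were called lower and 1 higher, against 13.5% and 11.7% of all genes. Of 9 mast cell, basophil and eosinophil genes tested, 3 were called higher (Prg2, Epx and Ear1) and 2 lower (Ms4a2 and Prss34), with a median of 0.58. Ear1 held 0 counts in every Tespa1+/+ library and 14, 13 and 15 in the Tespa1-/- libraries. Over genes of this list with at least 10 counts in every sample, 1 was called higher and 1 lower, with a median of 0.23. The part of these cells in the differences of Gata1, Zfpm1, Aqp1 and Car2, which are also expressed outside the red cell lineage, was not tested.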

How the data were processed

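Per the labels, poly-A RNA of LSKs was made into stranded paired-end libraries and sequenced on a NovaSeq instrument. The submitters' processing notes name CASAVA 1.8, HISAT2, StringTie, edgeR and GRCm38; the counting tool and its strand setting are not given in the sources used here. The authors deposited, for every gene and sample, a raw count together with FPKM, which divides the count by the library total and 1 length per gene. No member's exons overlapped those of another gene in GENCODE M21.

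All 6 samples were tested on the deposited counts with edgeR 4.0.16 (filterByExpr, TMM factors, quasi-likelihood F-test, no covariates, R 4.3.3), fitted on 15332 genes with Benjamini-Hochberg adjustment over them. Standard errors were derived from each F statistic. Calls needed a fold over 1.5 with an adjusted p under 0.05; the study used the same fold with an unadjusted p under 0.05. The length correction is a loess offset (span 0.5) per library on union exon length. Alternatives included DESeq2 1.42.0, limma 3.58.1 on log2(FPKM + 1) and log2(FPKM + 0.1), other scalings and filters, a replicate block and leaving out each library. The fits were tested on simulated counts. Where a length trend was simulated, edgeR without the length correction made many more false calls than with it.

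Replicate numbers came from the sample titles. Same-numbered libraries of the 2 genotypes had deviations from their group means that correlated by 0.0459, 0.0107 and 0.0595, so they were not treated as pairs. Library pairs within a group differed beyond counting error (chi-square per degree of freedom 7.66 to 9.98). The members and lists were chosen with earlier results of these data known. The text names all members, the genes of each pair, the 3 genes with the lowest p of each other list, the 3 most abundant genes of lists of other cell types, and further genes chosen after their values were seen. Some genes of the lists and 1 pair are not reported here, though counts and medians include them. Counts carry no molecular identifiers.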

Additional observations from a re-analysis of the deposited data

How the results depend on the processing

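Of 166 recomputed fold changes of single members under up to 17 alternatives, 161 kept their direction and their side of the adjusted p of 0.05, 5 lost the threshold and 0 reversed. Gata1, Klf1, Epor, Tfr2, Ermap, Car1, Car2 and Aqp1 kept both under all alternatives run for them. The 5 were Rhag with DESeq2 (0.56, adjusted p = 0.15) and Zfpm1 without each Tespa1+/+ library in turn (-0.73, -0.66 and -0.68) and with the replicate block and length correction together (-0.69, adjusted p = 0.0545). The number of members called lower lay between 7 and 9, and was 9 with total counts as the scaling, where Tfr2 passed the fold at -0.65 and the median of all genes moved to -0.10. The number called higher was 0 to 1 when single libraries were left out, the 1 being Rhag without Tespa1+/+ replicate 1 or Tespa1-/- replicate 3. The FPKM fits did not test Ermap and Rhag, which were under their minimum of 1 FPKM in 3 samples.

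Over all genes, 2148 called higher became 1070 with limma on log2(FPKM + 1), 1365 on log2(FPKM + 0.1) and 1020 with a test against the fold of 1.5, and 2951 called lower became 1626 on log2(FPKM + 1) and 1807 with the test against the fold. The FPKM fits tested only genes with at least 1 FPKM in 3 samples, and the test against the fold is stricter than the call by design. How much each setting added to the drop was not tested. With the replicate block, 8 members were called lower and 0 higher, with 2101 genes called higher and 2871 lower. All 6 libraries correlated best with the library of their own number in the other genotype, but at most by 0.0595. The log2 ratio difference of Gata1/Gata2 was -0.19 without Tespa1+/+ replicate 2 and -0.10 without Tespa1-/- replicate 2, and that of Zfpm1/Gata1 -0.11 without Tespa1-/- replicate 3, all reversed from the small positive main values. Leaving out single libraries gave -0.19 to 0.23 for Gata1/Gata2 and -0.11 to 0.39 for Zfpm1/Gata1.

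Over the alternatives, the number called lower was 0 to 5 for late erythroid genes, 2 to 8 for other early erythroid markers, 2 to 7 for partner factors, 2 to 6 for erythropoietin signalling, 5 to 10 for megakaryocyte and 4 to 10 for endothelial genes, and the number called higher was 1 to 4 for iron and heme and 8 to 13 for neutrophil genes. The late erythroid median was -0.05 with at least 10 counts in every sample, and the mast cell, basophil and eosinophil median -0.42 with no count filter. The neutrophil median was 1.45 with at least 10 counts in every sample, and the endothelial median -0.88 there and -0.63 with limma on log2(FPKM + 1). Counts under 100, as for Rhag, Klf1 and Epor in the shallower libraries, limit the precision of those genes.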
